A study of Mus musculus with 6 samples.

Results

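Chemokine ligands are small secreted proteins that draw leukocytes along a concentration gradient by binding G protein-coupled receptors. A few, such as Ccl2 and Cxcl1, are switched on by NF-kappaB in fibroblasts that sense infection or cytokines, others such as Cxcl9 and Cxcl10 are switched on by interferon, and a set that includes Ccl3, Ccl6, Ccl8 and Ccl9 is made mainly by macrophages. A further set, such as Cxcl12, is made continuously by stromal cells. The family was followed here during a treatment with Tet3, a dioxygenase that oxidises 5-methylcytosine, meant to turn mouse fibroblasts into neurons. The members are the genes whose RefSeq symbol, reached through the accession printed on the array, is Ccl or Cxcl with a digit, or is Cx3cl1 or Xcl1. That rule, which uses no measured value, found 34 of the 20656 genes named on the array, with 41 probes. Another 10 symbols of the rule had no named probe and were not analysed here, among them Cxcl11, Ccl27b and the copies of Ccl21.

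Total RNA from 6 samples was hybridised to 1 Agilent one-colour mouse array each, so no group has a replicate and no test between groups is possible. The untreated sample was mouse embryonic fibroblasts (MEF) taken from ICR embryos at E13.5. The Tet3 samples were such fibroblasts at 1, 3, 5 and 7 days post infection (dpi) after adenoviral supernatants had been applied for 8 h on 2 successive days in polybrene. After each infection the cells went into low-glucose medium with 5% serum, and part of the medium was replaced by neuronal medium with 20 µM forskolin, an activator of adenylyl cyclase, on days 3 and 5 after the second infection. The sources used here do not say whether the cells of 3 and 5 dpi were taken before or after those replacements. Primary neurons from embryos of the same age were the reference. No array of fibroblasts given virus without Tet3 was analysed here, so Tet3, virus and medium cannot be told apart in any comparison below.

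Levels are log2 signals relative to the 75th percentile of each array, and levels of different genes are not set against each other because each probe binds with its own strength. A gene was called higher or lower in a comparison at a difference of at least 2-fold. The error of a difference from the scanner's error model, which covers the array and not the cells, had a median of 0.204 on the log2 scale over the 115 measured differences of chemokine ligands from MEF, and ranged from 0.0645 to 0.388. Where 1 of the arrays was not well above background, the fold is a bound, and is written as "at least". It is taken against the dimmest probe well above background on that array. Where the gene's own signal was brighter than that probe, as for Cxcl3 and Cxcl9 in MEF, it is taken against that signal. Such bounds hold for the background correction used here, and the normexp correction gave lower folds for Cxcl3 and Cxcl9. The Tet3 signal was -0.23 in MEF, 1.13, 1.73 and 2.57 at 1, 3 and 5 dpi, 0.07 on the array labelled 7 dpi and -0.72 in neurons, so at 7 dpi it lay 0.30 above MEF. MEF shared its scan with 1 dpi, and 3, 5 and 7 dpi shared theirs with neurons, so scan and time cannot be told apart in comparisons of 3, 5 and 7 dpi or neurons with MEF. The 10 fibroblast markers were above background on all 6 arrays, with a summed signal relative to the 75th percentile of 421 to 639 on the fibroblast arrays and 32.4 in neurons. At 3 dpi 4 of the 10 were called lower than MEF and 1 higher, where 9.75% and 16.1% of all genes were. At 1, 5 and 7 dpi 0 were lower. Between 3 and 5 dpi 4 were higher and 0 lower, where 8.09% and 4.6% of all genes were. The neuron array also carried astrocyte and choroid plexus markers, with a summed signal of 138 for 6 markers against 2.09 to 3.16 elsewhere.

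Of the 34 ligands, 20 were well above background on all 6 arrays, 10 on some, and 4 (Ccl1, Ccl20, Ccl26 and Xcl1) on none. Ligands differed from MEF in both directions on every array. At 1 dpi 5 of 29 ligands were called higher and 6 lower than in MEF, against 5.3% and 5.95% of all genes tested. At 3 dpi the counts were 9 higher and 9 lower of 30, against 16.1% and 9.75%. At 5 dpi 9 of 29 were higher, against 17.9%, and 8 lower, against 8.25%. At 7 dpi 8 of 28 were higher, against 16.9%, and 9 lower, against 6.79%. In neurons 9 of 29 were higher than in MEF, against 30.3%, which is near the background, and 15 were lower, against 16.1%. The median difference of the ligands stayed near that of all genes at each time of treatment, at -0.09, 0.08, 0.14 and -0.02 beside 0.06, 0.19, 0.20 and 0.16, and was -1.33 beside 0.26 in neurons. Centring each array on its median instead turned the split at 3 dpi from 9 higher and 9 lower into 7 and 11, and that of neurons from 9 and 15 into 4 and 16. That centring moved the median of all genes measured on both arrays from 0.15 to -0.15 at 3 dpi and from 0.09 to -0.71 in neurons.

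**Figure D1:**
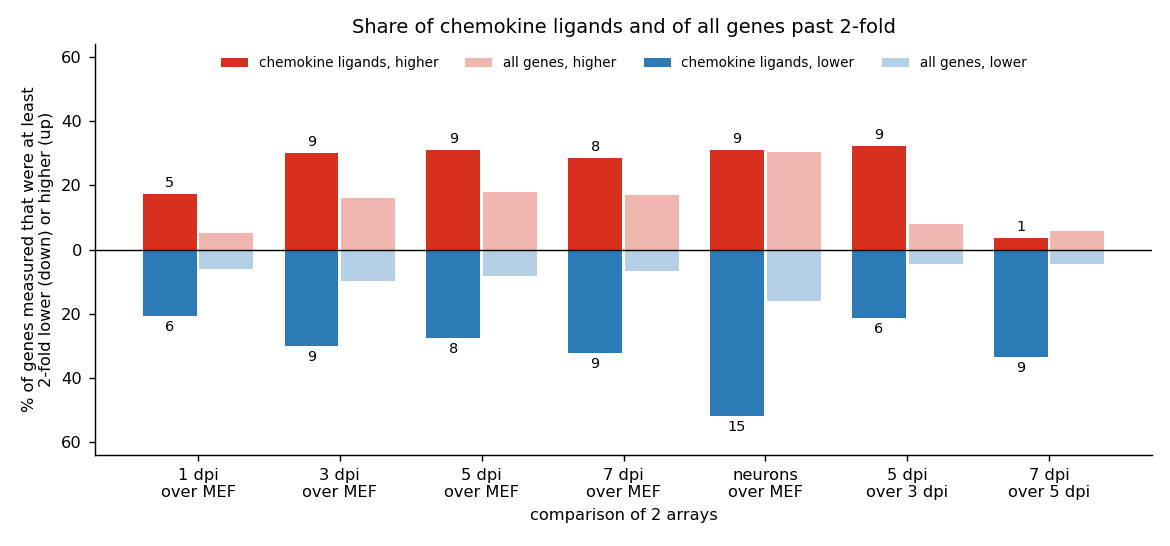
Percentage of tested genes called at least 2-fold higher or lower in each comparison, for chemokine ligands and for all genes. Ligands called lower than MEF numbered 6 of 29 at 1 dpi and 9 of 28 at 7 dpi, where all genes gave 5.95% and 6.79%.

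**Figure D2:**
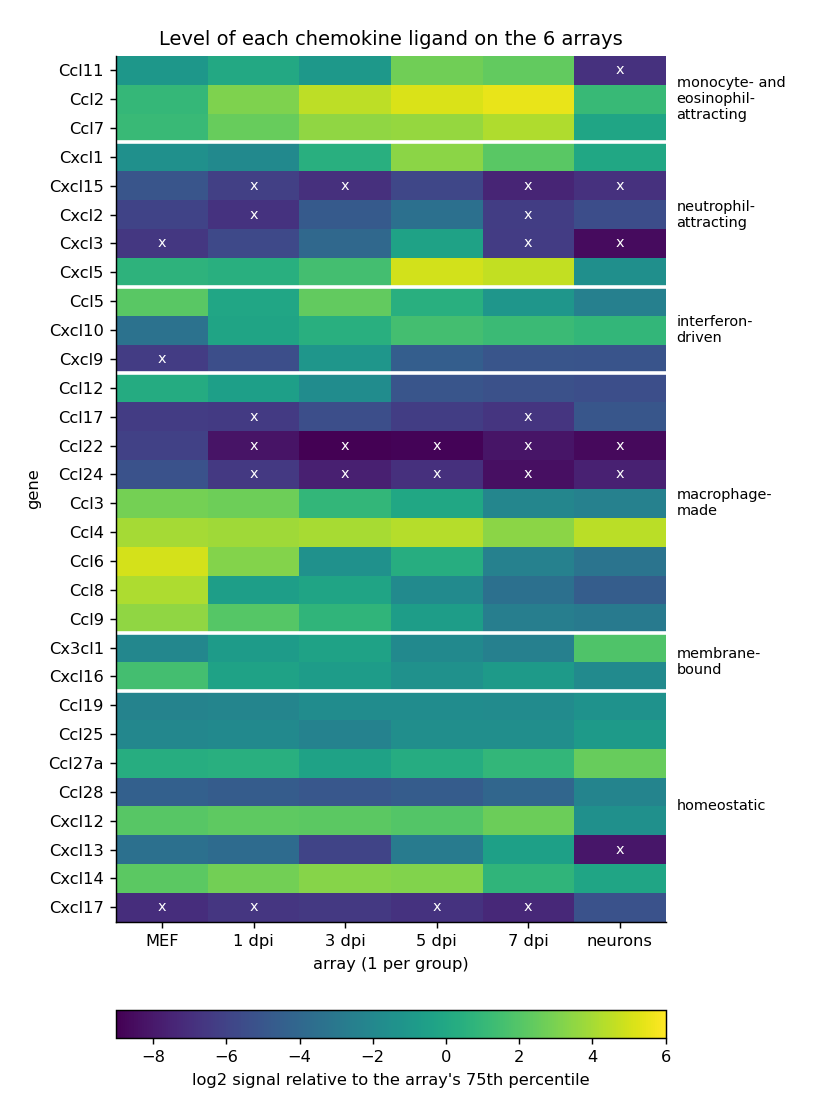
Level of the 30 chemokine ligands well above background on at least 1 array (colour, log2 signal relative to the 75th percentile of the array) on the 6 arrays, grouped by role, with x for values not well above background. Ccl2 went from 1.00 in MEF to 5.50 at 7 dpi while Ccl8 went from 4.15 to -3.47.

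Ccl2, Ccl7 and Ccl11 were grouped as monocyte- and eosinophil-attracting ligands. They were at least 2-fold higher than MEF on the 4 Tet3 arrays, apart from Ccl11 at 3 dpi, and not in neurons. Ccl12, also a ligand of Ccr2, Ccl8 (MCP-2) and Ccl24 (eotaxin-2) were grouped by source among the macrophage-made ligands. At 5 dpi these were 39.4-fold, 61.7-fold and at least 3.28-fold lower than MEF, the last under 2-fold with normexp. The shared direction thus belongs to the 3 ligands grouped here, and the groups were chosen with earlier results of these data known. Called higher than MEF were 3 of 3 at 1, 5 and 7 dpi and 2 of 3 at 3 dpi. The shares of all genes called higher were 5.3%, 17.9%, 16.9% and 16.1% in that order. In neurons 0 were higher and 2 lower, where 30.3% and 16.1% of all genes were. Ccl2, the main ligand of the monocyte receptor Ccr2, was measured at 1.00 in MEF, 3.12, 4.52, 5.18 and 5.50 at 1, 3, 5 and 7 dpi, and 1.13 in neurons. All 4 Tet3 arrays were above both MEF and neurons, and the fold over MEF was 4.35, 11.5, 18.1 and 22.6 in order of time. The probe is printed 10 times on the array, and the SD between those spots was at most 0.0764 on the log2 scale. Ccl7, another ligand of Ccr2 that also acts on eosinophils, was at 1.15 in MEF, 2.52, 3.53, 3.62 and 4.21 on the Tet3 arrays and -0.18 in neurons. It was 2.58-fold above MEF at 1 dpi and 8.33-fold above at 7 dpi, and 2.51-fold lower in neurons. Ccl11 (eotaxin), which attracts eosinophils through Ccr3, had levels of -1.04 in MEF, 0.03, -0.98, 2.73 and 2.37 on the Tet3 arrays, and was not well above background in neurons. Its course was not steady: it was 2.10-fold above MEF at 1 dpi, 1.04-fold above at 3 dpi and 13.6-fold above MEF at 5 dpi. Within the second scan Ccl11 was 13.0-fold higher at 5 than at 3 dpi, while Ccl2 differed by 1.57-fold and Ccl7 by 1.06-fold between those arrays. Against neurons, which share the scan, the array labelled 7 dpi was 20.6-fold higher for Ccl2, 20.9-fold higher for Ccl7 and at least 484-fold higher for Ccl11.

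Of the 5 neutrophil-attracting ligands, 4 (Cxcl1, Cxcl2, Cxcl3 and Cxcl5) had their highest level at 5 dpi. These are ELR-type CXC chemokines that act on the receptor Cxcr2. Of the 5 members, 0 were called higher than MEF at 1 dpi, 3 at 3 dpi and 4 at 5 dpi, with medians of -0.24, 1.21 and 4.28. Of all genes 5.3%, 16.1% and 17.9% were higher on those arrays. At 7 dpi 2 of 4 were higher and 1 lower, where 16.9% and 6.79% of all genes were. The ligand called lower than MEF was Cxcl15, at 1, 3 and 7 dpi, and normexp left it under 2-fold each time. Between 3 and 5 dpi, within 1 scan, all 5 were at least 2-fold higher, with a median of 2.89, where 8.09% of all genes were. Cxcl15 was so only as a bound near the threshold, at least 2.03-fold, and was not well above background at 3 dpi. The genes Cxcl3, Cxcl15, Cxcl1 and Cxcl2 follow each other on chromosome 5, and the promoters of all but Cxcl15 are shown because they carry the same run of letters. In the 250 bases before the start (RefSeq, GRCm38.p6), capitals mark the kappaB motif, searched on both strands, a form of the sequence that NF-kappaB binds, and a match shows the letters and not binding. Cxcl3 is at chr5:90785851-90786100, Cxcl1 at chr5:90890995-90891244 and Cxcl2 at chr5:90903649-90903898, all on the plus strand.
Cxcl3: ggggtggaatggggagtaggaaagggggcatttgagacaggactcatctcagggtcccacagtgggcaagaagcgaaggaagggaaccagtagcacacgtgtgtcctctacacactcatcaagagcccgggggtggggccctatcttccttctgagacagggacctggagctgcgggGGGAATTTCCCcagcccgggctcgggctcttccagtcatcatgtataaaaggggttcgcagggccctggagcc
Cxcl1: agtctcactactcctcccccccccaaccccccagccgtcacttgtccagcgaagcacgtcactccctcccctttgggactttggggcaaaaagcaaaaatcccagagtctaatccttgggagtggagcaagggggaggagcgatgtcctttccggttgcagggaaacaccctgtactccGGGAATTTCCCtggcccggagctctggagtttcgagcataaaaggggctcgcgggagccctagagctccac
Cxcl2: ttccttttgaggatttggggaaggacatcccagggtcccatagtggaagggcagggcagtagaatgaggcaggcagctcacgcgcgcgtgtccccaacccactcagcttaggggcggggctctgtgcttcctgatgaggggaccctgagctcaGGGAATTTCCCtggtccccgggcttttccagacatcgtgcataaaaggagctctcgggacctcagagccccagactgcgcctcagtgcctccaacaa
Each holds the run GGGAATTTCCC, in which the motif matches on both strands at overlapping places, beginning 73, 71 and 97 bases before the start. Cxcl15 had no match, and Cxcl5 was not in the promoter table.

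Cxcl1 (KC), a main neutrophil attractant of mouse fibroblasts, was at -1.46 in MEF, -1.88, 0.48, 3.37 and 2.17 on the Tet3 arrays and -0.07 in neurons. It lay 3.81-fold above MEF at 3 dpi, 28.3-fold above at 5 dpi and 12.4-fold above at 7 dpi. Cxcl5 (LIX) was at 0.69 in MEF, 0.44, 1.52, 4.97 and 4.64 on the Tet3 arrays and -1.52 in neurons. The 1 and 3 dpi arrays were within 2-fold of MEF, and those of 5 and 7 dpi were 19.5-fold and 15.5-fold higher. Cxcl3 was not well above background in MEF, at 7 dpi or in neurons, and was at -5.71, -3.94 and -0.34 at 1, 3 and 5 dpi. It was at least 75.2-fold above MEF at 5 dpi and 12.1-fold above 3 dpi, and at least 56.1-fold lower at 7 than at 5 dpi. Cxcl2 (MIP-2) was low throughout, at -5.98 in MEF, -4.78 at 3 dpi, -3.45 at 5 dpi and -5.44 in neurons, and not well above background at 1 and 7 dpi. It was 5.81-fold above MEF at 5 dpi and at least 6.52-fold lower at 7 than at 5 dpi. Cxcl15 (lungkine), known from lung epithelium, was near background, at -5.02 in MEF and -5.83 at 5 dpi, and not well above background elsewhere. The low signals depend on the background correction: with normexp the differences from MEF at 5 dpi on the log2 scale were 4.08 in place of 6.23 for Cxcl3 and 1.45 in place of 2.54 for Cxcl2, and Cxcl2 at 3 dpi was at 0.43 in place of 1.21. So from 5 to 7 dpi the neighbours Cxcl1, Cxcl2 and Cxcl3 were all at least 2-fold lower, where 4.6% of all genes were, by 2.29-fold for Cxcl1, while Cxcl5 was 1.26-fold lower. Ppbp, a platelet and neutrophil chemokine whose gene lies next to Cxcl5, was 11.7-fold above MEF at 5 dpi and 1.35-fold lower at 7 dpi.

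**Figure D3:**
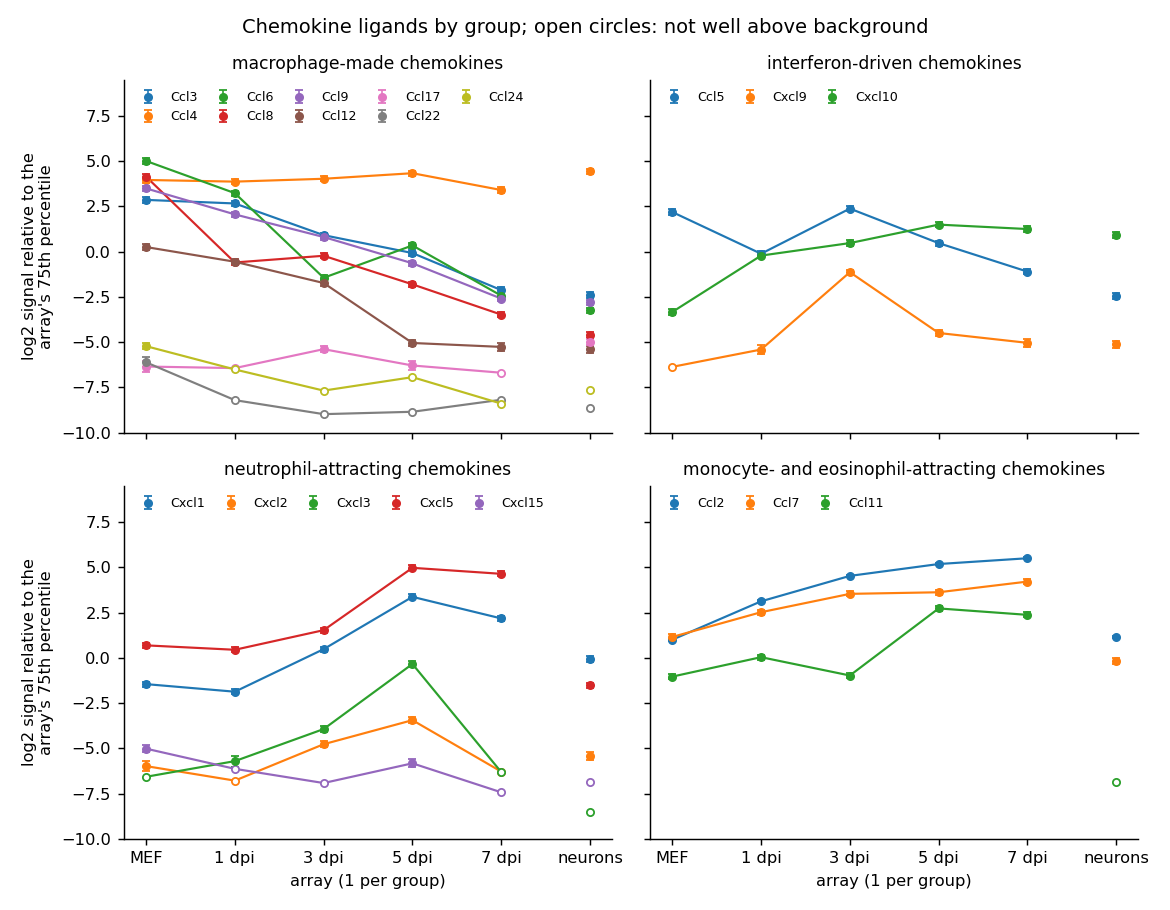
Level of each ligand (log2 signal relative to the 75th percentile of the array) on the 6 arrays in 4 groups of roles, with bars for the scanner's error of the array and open circles for values not well above background. Cxcl1, Cxcl2, Cxcl3 and Cxcl5 have their highest point at 5 dpi, and Cxcl9 and Ccl5 theirs at 3 dpi.

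Of 6 neutrophil markers, 4 could be compared with MEF at each time of treatment, with medians between -0.06 and 0.04, and S100a9 and Ngp were not well above background on any fibroblast array. Camp, a granule peptide of neutrophils and epithelia, was 6.36-fold above MEF at 5 dpi and 11.8-fold above at 7 dpi, and its part in these results was not tested. The NF-kappaB targets, a list of 24 genes, had 2 called higher and 2 lower of 22 at 1 dpi, then 5 and 3 of 23 at 3 dpi, 11 and 2 at 5 dpi and 11 and 1 at 7 dpi, with medians of -0.45, 0.20, 0.73 and 0.41. Of all genes 5.3%, 16.1%, 17.9% and 16.9% were higher on those arrays, and 5.95%, 9.75%, 8.25% and 6.79% lower. Il6, an inflammatory cytokine, was 16.7-fold above MEF at 5 dpi and 2.53-fold above at 7 dpi. Lcn2, an iron-binding protein of the acute response, was 8.97-fold and 14.0-fold above MEF on those arrays. Ptgs2, which makes prostaglandins, was 28.0-fold and 26.0-fold above MEF at 3 and 5 dpi and 1.24-fold above at 7 dpi. Saa3, an acute-phase protein, was 17.9-fold lower than in MEF at 3 dpi and 8.98-fold higher at 7 dpi. The list thus held several courses, among which that of Il6 had its peak at 5 dpi as Cxcl1 and Cxcl3 did.

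Among the ligands that interferon induces, Cxcl10 stood above MEF on every other array, Cxcl9 peaked at 3 dpi, and Ccl5 was lower on most. Cxcl10 (IP-10) draws activated T cells through Cxcr3. It was at -3.33 in MEF, -0.22, 0.48, 1.50 and 1.25 on the Tet3 arrays, and 0.92 in neurons. The lowest of the other 5 arrays was 8.66-fold above MEF, at 1 dpi in the same scan, and the highest was 28.4-fold above, at 5 dpi. Its promoter is shown because it is the member of the promoter table that holds both an interferon motif and kappaB motifs in this window. It is at chr5:92348890-92349139 on the minus strand of GRCm38.p6 (RefSeq), and capitals mark, in order, the core of the interferon-stimulated response element (ISRE) and 2 matches of the kappaB motif.
Cxcl10: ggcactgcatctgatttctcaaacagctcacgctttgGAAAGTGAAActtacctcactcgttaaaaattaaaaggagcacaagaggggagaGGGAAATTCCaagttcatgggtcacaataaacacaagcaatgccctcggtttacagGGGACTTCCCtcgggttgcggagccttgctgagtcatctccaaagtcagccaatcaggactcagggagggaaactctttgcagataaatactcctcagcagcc
The matches begin 213, 159 and 103 bases before the start. Of 24 members in the promoter table, 5 (20.8%) held the kappaB motif against 3.33% of 32851 promoters, and 3 (12.5%) held the ISRE motif against 2.98%. The share of members is by gene, and that of the 32851 is by promoter. The kappaB motif was in Cxcl1, Cxcl2, Cxcl3, Cxcl10 and Ccl1, the last not well above background on any array. Of these, Cxcl1, Cxcl2 and Cxcl3 hold the same run of letters and lie in the same stretch of chromosome 5. Ccl2, Ccl7, Ccl11 and Ccl5 were among the 10 members without a promoter in the table, so their motifs were not searched. The ISRE motif was in Cxcl10, Ccl19 and Cxcl14. The interferon-gamma motif TTCNNNGAA was in 2 of 24 (8.33%) against 7.02%, and Cxcl9 held none of the 3 in this window. The macrophage-made group had 0 kappaB matches in 7 promoters.

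Cxcl9 (MIG), the other Cxcr3 ligand measured, was not well above background in MEF and was at -5.40, -1.13, -4.49 and -5.03 on the Tet3 arrays and -5.13 in neurons. It was at least 37.5-fold above MEF at 3 dpi, 19.3-fold above 1 dpi, and 10.3-fold lower again at 5 than at 3 dpi within the same scan. The second probe had the same peak, at -0.89 at 3 dpi with -5.61 and -4.51 on the arrays before and after it. With normexp Cxcl9 was 3.31 above MEF at 3 dpi on the log2 scale in place of 5.23, and under 2-fold at 5 dpi, at 0.86 in place of 1.87. Ccl5 (RANTES), which attracts T cells and monocytes, was at 2.19 in MEF, -0.11, 2.38, 0.47 and -1.10 on the Tet3 arrays and -2.45 in neurons. It too was higher at 3 dpi than on the arrays before and after it, by 5.63-fold over 1 dpi and 3.75-fold over 5 dpi, at a level 1.14-fold above MEF. The array labelled 7 dpi was 9.79-fold below MEF for Ccl5 and neurons 25.0-fold below.

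Of 24 genes compared in the interferon system list, 10, 10 and 11 were called higher at 1, 3 and 5 dpi. At 7 dpi 10 of 25 were called higher. The counts lower at those 4 times were 2, 5, 2 and 1. Of all genes 5.3%, 16.1%, 17.9% and 16.9% were called higher there, and 5.95%, 9.75%, 8.25% and 6.79% lower. In neurons 2 of 25 were higher than in MEF, where 30.3% of all genes were, and 12 lower, where 16.1% were. Oasl1 and Ifi44, antiviral genes induced by interferon, were 11.4-fold and 11.1-fold above MEF at 1 dpi and 24.5-fold and 29.3-fold above at 5 dpi. Isg15, a ubiquitin-like modifier induced by interferon, was 5.59-fold above MEF at 1 dpi and 1.74-fold lower in neurons. In neurons, therefore, Cxcl10 was 19.0-fold above MEF while 12 of these 25 genes were lower. Ifng was not well above background on any fibroblast array, and Ifnb1 was well above background at 7 dpi alone, at -6.05. Of 8 T and NK cell markers, 5 (Cd3e, Cd4, Cd8a, Nkg7 and Gzmb) were well above background on all 6 arrays, Cd3d at 5 dpi and in neurons alone, and Cd3g and Ncr1 on none. Their summed signal relative to the 75th percentile was between 18.0 and 19.5 on the fibroblast arrays and 14.4 in neurons, and their part in these results was not tested. Cxcr6, the receptor of Cxcl16, shared the peak of Cxcl9: it was not well above background in MEF, at -5.75, -2.15, -4.86 and -5.79 on the Tet3 arrays, and at least 21.9-fold above MEF at 3 dpi.

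Of the ligands made mainly by macrophages, Ccl3, Ccl6, Ccl8, Ccl9 and Ccl12 were at least 2-fold lower than in MEF at 3, 5 and 7 dpi and in neurons, while Ccl4 stayed within 2-fold of MEF. Of the 9 members, 3 were called lower at 1 dpi, 6 at 3 dpi, 6 at 5 dpi, 5 at 7 dpi and 6 in neurons. The medians were -0.81, -1.95, -2.94, -4.98 and -5.26. Of all genes 5.95%, 9.75%, 8.25%, 6.79% and 16.1% were lower on those arrays. Ccl24, well above background in MEF alone, was not counted at 7 dpi, where its bound was 1.91-fold lower. The dimmest probe well above background was at -6.15 on that array and at -6.97 at 5 dpi. In bulk RNA, fewer cells of a type and less RNA per cell cannot be told apart. Ccl8 (MCP-2) was at 4.15 in MEF, -0.60, -0.23, -1.80 and -3.47 on the Tet3 arrays and -4.60 in neurons. At 1 dpi, in the same scan as MEF, it was 26.7-fold lower, the largest difference among the 9 on that array, and at 7 dpi it was 196.7-fold lower. Ccl6, a mouse CC chemokine of myeloid cells, was at 5.01 in MEF, 3.23, -1.44, 0.34 and -2.43 on the Tet3 arrays and -3.23 in neurons. Its fold below MEF was 3.43 at 1 dpi, 87.6 at 3 dpi, 25.4 at 5 dpi and 173.8 at 7 dpi, so the array of 3 dpi lay below that of 5 dpi. Ccl9, a close relative of Ccl6, had a steadier course, at 3.50, 2.06, 0.81, -0.64, -2.59 and -2.80 from MEF to neurons. Ccl9 was 2.70-fold below MEF at 1 dpi and 68.0-fold below at 7 dpi.

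Ccl3 (MIP-1 alpha), a ligand of Ccr1, was at 2.86 in MEF, 2.66, 0.91, -0.07 and -2.12 on the Tet3 arrays and -2.40 in neurons. It was within 2-fold of MEF at 1 dpi, at 1.15-fold lower, and 31.6-fold lower at 7 dpi. Ccl12 (MCP-5), a mouse ligand of Ccr2, was at 0.26, -0.55, -1.73, -5.04, -5.26 and -5.39 from MEF to neurons, and its largest step was 9.94-fold lower from 3 to 5 dpi. With normexp its difference from MEF at 5 dpi was -4.17 in place of -5.30 on the log2 scale. Ccl4 (MIP-1 beta), whose gene is next to that of Ccl3, was at 3.96, 3.87, 4.03, 4.34, 3.41 and 4.45. All 5 arrays were within 2-fold of MEF for Ccl4, including neurons at 1.40-fold higher, where Ccl3 was 38.3-fold lower. Each of these genes was read from 1 probe, so the contrast could not be checked with another. Ccl24 (eotaxin-2) and Ccl22, both known from alternatively activated macrophages and dendritic cells, were well above background in MEF alone, so the treated arrays give bounds: Ccl24 was at least 3.28-fold lower at 5 dpi and Ccl22 at least 1.81-fold lower. With normexp Ccl24 differed from MEF by -0.23 at 5 dpi in place of -1.71 on the log2 scale. Ccl17, a ligand of Ccr4, was close to background throughout, between -6.34 and -4.97 where measured, and 2.59-fold higher in neurons than in MEF, which became -0.06 on the log2 scale with quantile normalization.

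Macrophage markers were lower than in MEF as well, but not every ligand of this group followed them. Of 16 markers, 15 were called lower than MEF at 1, 3, 5 and 7 dpi and in neurons. The medians were -2.22, -4.23, -6.35, -8.24 and -6.99. Of all genes 5.95%, 9.75%, 8.25%, 6.79% and 16.1% were lower on those arrays. From 3 to 5 dpi all 16 markers were at least 2-fold lower, where 4.6% of all genes were. Of 7 ligands of the group compared there, 3 were lower and 1, Ccl6, was higher. The summed signal of the 16 markers relative to the 75th percentile was 385 in MEF, 80.9, 42.0, 12.3 and 9.29 on the Tet3 arrays and 23.6 in neurons. All 16 were above background in MEF, and at 7 dpi Mrc1, Stab1 and Laptm5 were not. Csf1r, the receptor that macrophages need to survive, was 12.5-fold below MEF at 1 dpi and 55.1-fold below at 7 dpi, and C1qa, a subunit of the complement protein C1q made by macrophages, was 8.05-fold and 732-fold below. Itgam was the exception, between 1.72-fold below and 1.91-fold above MEF. The summed signal of the 9 ligands was 85.4 in MEF, 35.9, 21.5, 23.4 and 11.3 on the Tet3 arrays and 22.4 in neurons. Without Ccl4 it was 69.8 in MEF, 21.3, 5.2, 3.2 and 0.714 on the Tet3 arrays and 0.544 in neurons. The part of the macrophage markers in the lower ligand levels was not tested.

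**Figure D4:**
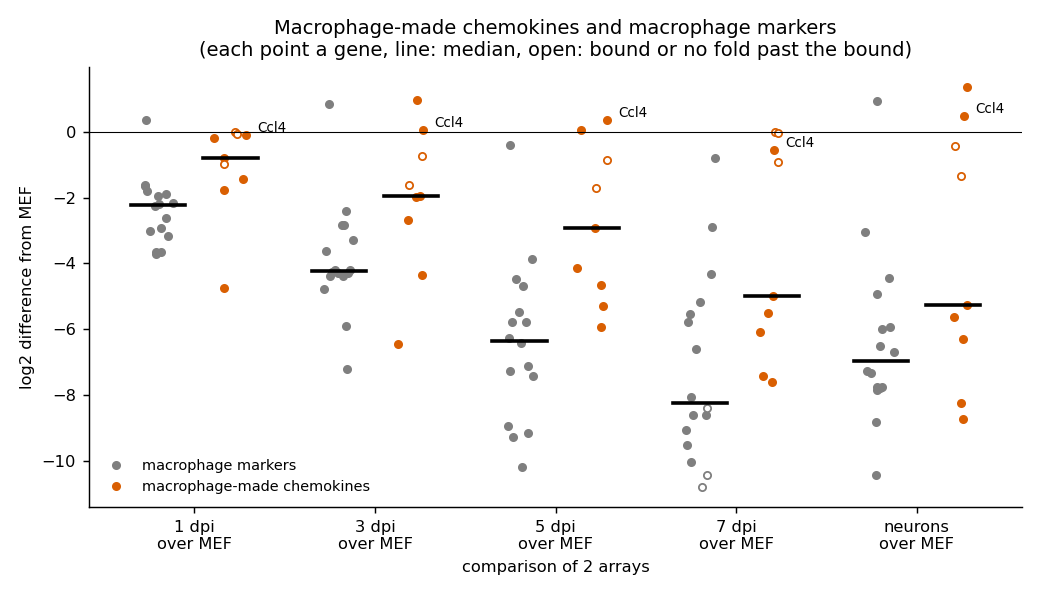
log2 difference from MEF of the macrophage-made ligands beside that of the macrophage markers on each array, each point a gene, with lines for list medians and open points for bounds. At 7 dpi the medians were -4.98 for the 9 ligands and -8.24 for the 16 markers, and Ccl4 lay at -0.56.

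Pf4, a CXC chemokine of platelets and macrophages whose symbol lies outside the rule, went the same way: it was at 2.14 in MEF, 5.83-fold lower at 1 dpi, 79.6-fold lower at 5 dpi and 353-fold lower in neurons. Its gene lies beside Cxcl3, which was at least 75.2-fold above MEF at 5 dpi.

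Most ligand genes that adjoin each other on chromosome 11, which holds 12 of the members, shared a direction at 5 dpi, and the direction changed between Ccl11 and Ccl12. The order of protein-coding genes in RefSeq is Ccl2, Ccl7, Ccl11, Ccl12, Ccl8 and Ccl1 in one run and Ccl5, Ccl9, Ccl6, Ccl3 and Ccl4 in another. At 5 dpi the first run went from 18.1-fold above MEF for Ccl2, 5.53-fold for Ccl7 and 13.6-fold for Ccl11 to 39.4-fold below for its neighbour Ccl12 and 61.7-fold below for Ccl8, with Ccl1 not above background. At 7 dpi the step between Ccl11 and Ccl12 was as plain, with Ccl11 10.6-fold above and Ccl12 45.8-fold below MEF. The second run was lower at 5 dpi for 4 genes, from 3.29-fold for Ccl5 to 25.4-fold for Ccl6, and its last gene Ccl4 was 1.30-fold above MEF. The chromosome 5 run of Pf4, Cxcl3, Cxcl15, Cxcl1 and Cxcl2 also held both directions at 5 dpi. On chromosome 8 the run Ccl22, Cx3cl1 and Ccl17 placed Cx3cl1, 14.9-fold higher in neurons than in MEF, between ligands near background. These ligands are close copies in places, and the probes may bind more than 1 of them, which was not tested.

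**Figure D5:**
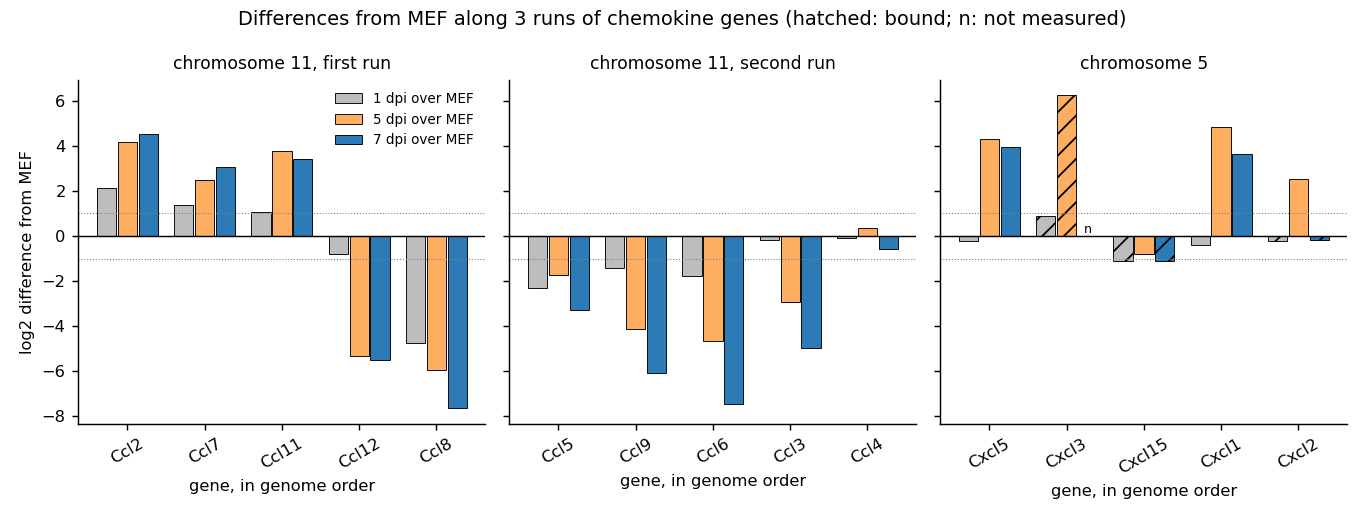
Bars of the log2 difference from MEF at 1, 5 and 7 dpi for ligands of 3 gene runs on chromosomes 11 and 5, in gene order along the x axis, with dotted lines at 2-fold, hatching for bounds and n where neither array was well above background. At 5 dpi Ccl11 lies at 3.77 and its neighbour Ccl12 at -5.30.

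The membrane-bound ligands carry their chemokine domain on a stalk and can be shed. Cx3cl1 (fractalkine), made by neurons and read by microglia through Cx3cr1, was at -2.03 in MEF, -0.78, -0.38, -1.89 and -2.45 on the Tet3 arrays and 1.87 in neurons. It was 2.38-fold and 3.13-fold above MEF at 1 and 3 dpi, within 2-fold at 5 and 7 dpi, and 14.9-fold above in neurons. The array labelled 7 dpi thus lay 19.9-fold below neurons for Cx3cl1. On that array 9 of 10 neuron markers were called higher than in MEF, where 16.9% of all genes were. Tubb3, a neuronal tubulin, was 9.93-fold above. Cxcl16, a scavenger receptor and ligand made by macrophages among other cells, was at 1.53 in MEF, -0.39, -0.72, -1.41 and -0.80 on the Tet3 arrays and -1.83 in neurons. Across the other 5 arrays it was between 3.78-fold below MEF, at 1 dpi, and 10.3-fold below, in neurons.

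By their brightest probes, the homeostatic ligands that could be compared differed from MEF less than 2-fold at 1 and 5 dpi, while other probes of Cxcl12 and Ccl19 passed 2-fold. Of those that could be compared, 0 of 7 were called at 1 dpi and 0 of 7 at 5 dpi. At 3 dpi 1 of 8 was higher and 1 lower, and at 7 dpi 1 of 7 was higher and 1 lower. In neurons 4 of 8 were higher and 3 lower. Of all genes 5.3%, 16.1%, 17.9%, 16.9% and 30.3% were higher at 1, 3, 5 and 7 dpi and in neurons. The shares lower were 5.95%, 9.75%, 8.25%, 6.79% and 16.1%. The counts higher at 3 and 7 dpi were thus near the share of all genes. Cxcl12 (SDF-1), the stromal ligand of Cxcr4 that guides stem cells and migrating neurons, was at 2.13 in MEF, 2.30, 2.22, 2.00 and 2.65 on the Tet3 arrays and -1.48 in neurons. The fibroblast arrays were within 1.43-fold of MEF, and neurons were 12.2-fold below. Another probe for a different transcript of Cxcl12 had 1.83 in MEF, 2.43, 2.72, 2.89 and 2.31 on the Tet3 arrays and -2.92 in neurons, so at 5 dpi it was 1.06 above MEF on the log2 scale where the brightest probe was at -0.13. Its receptor Cxcr4 was at 0.83 in MEF, 4.40-fold lower at 1 dpi, 67.6-fold lower at 5 dpi and 3.72-fold lower in neurons.

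Cxcl13 (BLC), which attracts B cells, was at -3.49 in MEF, -3.75, -5.95, -2.78 and -0.47 on the Tet3 arrays, and was not well above background in neurons. It was 5.50-fold below MEF at 3 dpi and 8.11-fold above at 7 dpi, and within the second scan it was 8.97-fold higher at 5 than at 3 dpi and 4.97-fold higher at 7 than at 5 dpi. With normexp the difference at 3 dpi was -1.44 in place of -2.46 on the log2 scale. Among 27 ligands compared between 5 and 7 dpi it was the 1 called higher, where 5.85% of all genes were. Another 9 were called lower, where 4.6% of all genes were. Cxcl14 (BRAK), a ligand of skin and stroma, differed from MEF the other way at 3 and 7 dpi, at 2.23 in MEF, 2.79, 3.27, 3.17 and 0.84 on the Tet3 arrays and -0.18 in neurons. It was 2.06-fold above MEF at 3 dpi, 2.61-fold below at 7 dpi and 5.02-fold lower at 7 than at 5 dpi. With median centring its difference at 3 dpi was under 2-fold, at 0.75 on the log2 scale.

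Ccl27a, a skin ligand of Ccr10, was at 0.35, 0.46, -0.38, 0.29 and 0.91 on the fibroblast arrays and 2.53 in neurons, 4.54-fold above MEF. Ccl28, a mucosal ligand of the same receptor, was at -4.42, -4.66, -4.90, -4.61 and -4.07 on the fibroblast arrays and -2.25 in neurons, 4.50-fold above MEF. Both ligands of Ccr10 were within 2-fold of MEF on every Tet3 array. Ccl25, a gut and thymus ligand of Ccr9, ranged from -2.35 to -1.57 on the fibroblast arrays and was 2.38-fold above MEF in neurons. Ccl19, a lymphoid ligand of Ccr7, ranged from -2.27 to -1.34 and was within 2-fold of MEF on all arrays by its brightest probe. Its dimmest of 3 probes differed from that, with log2 differences from MEF of -1.09, -1.12, -1.11 and 0.10 at 1, 3, 5 and 7 dpi and 2.61 in neurons, and the remaining probe was at 1.36 in neurons. Cxcl17, a mucosal chemokine, was well above background at 3 dpi and in neurons alone, at -6.49 and -5.21. Ccl27a has a near copy, Ccl27b, and Ccl19 has several pseudogene copies, and their signals may hold those of the copies.

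Neurons over MEF thus gave 15 ligands lower and 9 higher. The higher ones were Cx3cl1, Cxcl10, Cxcl1, Cxcl9, Ccl17, Ccl25, Ccl27a, Ccl28 and Cxcl17, the last at least 2.62-fold. Centring on the median put 5 of them under 2-fold, with log2 differences of 0.59 for Cxcl1, 0.43 for Cxcl9, 0.57 for Ccl17, 0.45 for Ccl25 and 0.59 for Cxcl17, and left 3.09 for Cx3cl1, 3.45 for Cxcl10, 1.38 for Ccl27a and 1.37 for Ccl28. Between the array labelled 7 dpi and neurons, which share a scan, 11 of 26 ligands were at least 2-fold higher at 7 dpi, where 13.8% of all genes were, and 5 lower, where 19.4% were. The higher ones included Ccl2, Ccl7, Ccl11, Cxcl1, Cxcl5, Cxcl12 and Cxcl13. Fibroblast markers differed between the same arrays, with 10 of 10 higher at 7 dpi and a median of 5.91. Of these ligands, Ccl8 was higher by 2.18-fold and Ccl5 by 2.55-fold, while both were below MEF on both arrays.

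Between 1 and 3 dpi, which lie in different scans, 8 of 27 ligands were higher at 3 dpi, where 7.6% of all genes were, and 6 lower, where 4.96% were. The higher ones were Ccl2, Ccl7, Ccl5, Cxcl9 and 4 of the neutrophil-attracting ligands. Of these, Ccl7 at 2.02-fold and Cxcl5 at 2.12-fold were near the threshold. With normexp 5 ligands were higher and 6 lower, where 2.29% and 3.84% of all genes were. Quantile normalization gave 6 and 5, where 3.46% and 6.37% were, and median centring 6 and 7, where 4.12% and 7.21% were. Between 5 and 3 dpi, within a scan, 9 of 28 were higher and 6 lower, where 8.09% and 4.6% of all genes were. The 9 were the 5 neutrophil-attracting ligands with Ccl11, Cxcl13, Cxcl10 and Ccl6. Cxcl10 at 2.03-fold and Cxcl15 at a bound of 2.03-fold were near the threshold. With median centring 7 were higher and 8 lower, where 6.86% and 5.75% of all genes were. Without that centring the 6 lower ones were Cxcl9, Ccl5, Ccl12, Ccl8, Ccl9 and Cx3cl1.

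The list of chemokine receptors held 23 genes. Of 18 that could be compared with MEF, 0 were higher and 6 lower at 1 dpi, 5 and 6 at 3 dpi, 5 and 7 at 5 dpi, and 4 and 7 at 7 dpi. Of all genes 5.3%, 16.1%, 17.9% and 16.9% were higher on those arrays and 5.95%, 9.75%, 8.25% and 6.79% lower. In neurons 7 of 19 receptors were higher, where 30.3% of all genes were, and 8 lower, where 16.1% were. Cxcr2, the receptor of the neutrophil-attracting ligands, and Ccr2, the receptor of Ccl2 and Ccl7, were not well above background on any array. Ackr1, a decoy receptor that binds many inflammatory chemokines, was within 2-fold of MEF on the Tet3 arrays and 10.9-fold higher in neurons.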

How the data were processed

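Each of the 6 samples had 1 array file, and the submitters' processing notes name Agilent Feature Extraction 11.0.1.1. The deposited intensity column is background-corrected, and other columns flag background and outliers, per the file headers. A deposited series table holds the authors' log2 values, with a 75th percentile near 0 in each column by a step that the sources used here do not give. It correlated with the values computed here at r of 0.99998 or more. With Python 3.11.15, spots of a probe were averaged without outliers, log2 was taken and each array was shifted to put its 75th percentile at 0. Of 39409 probes used, 27222 (69.1%) had a symbol through RefSeq accessions. Genes with several probes (5469) were read from the brightest by mean over the arrays. With both arrays well above background a difference was taken as measured, with 1 as a bound, and with none as absent. A fold of 2 or more was called. With 1 array per group no test was run, and the calling was tested on simulated data.

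Chemokine ligands were grouped by role. The members, groups and lists were chosen with earlier results of these data known. All members well above background could be named, with up to 4 genes per other list and the defining markers Csf1r, Mrc1, C1qa, Adgre1, Col1a1 and Tubb3. Alternatives were normexp on median signals with offset 50 (limma 3.58.1 in R 4.3.3), quantile normalization, median centring, the authors' table, other filters, the mean over probes and a 4-fold threshold. The brightest probe by linear signal was added after seeing the data. Promoters came from RefSeq (GRCm38.p6), with 24 of 34 members matched. Other array annotation positions were not used. The number of arrays limits the precision.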

Additional observations from a re-analysis of the deposited data

Results flagged for a closer look

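Cxcl13 and Cxcl14 lay on opposite sides of MEF at different times of the treatment. Cxcl13 differed from MEF by -2.46 on the log2 scale at 3 dpi and by 3.02 at 7 dpi. Cxcl14 differed by 1.04 at 3 dpi and by -1.39 at 7 dpi. With median centring the first of these was 0.75, under 2-fold, and with normexp that of Cxcl13 at 3 dpi was -1.44. Each group has 1 array, so the difference between the times was not tested. The 3 and 7 dpi arrays share a scan, and the array labelled 7 dpi had a Tet3 signal near that of MEF.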

How the results depend on the processing

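No paired analysis was possible because each group has 1 array, and for the same reason no array could be left out. Of 279 pairs of a count and 1 of the 9 alternative settings, 243 stayed within 1.5 times. Counts of 3 dpi over 1 dpi were not among these pairs. Of 680 pairs of a called log2 difference and a setting, 1 turned its direction: Ccl17 in neurons over MEF, at -0.056 with quantile normalization, and 153 moved by more than the array error. With a 4-fold threshold, ligands higher than MEF numbered 2 at 1 dpi, 5 at 3 dpi and 4 in neurons, those lower 2 at 1 dpi and 5 at 3 dpi; 5 were higher and 2 lower at 5 than at 3 dpi, 5 lower at 7 than at 5 dpi, and 7 higher and 1 lower at 7 dpi than in neurons. With the same threshold 1 interferon-driven ligand was higher at 5 dpi, at 7 dpi and in neurons, 1 macrophage-made ligand was lower at 1 dpi and 3 at 3 dpi, and 1 neutrophil-attracting ligand was higher at 3 dpi and 0 in neurons. Interferon-driven ligands higher than MEF numbered 1 in place of 2 at 3, 5 and 7 dpi and in neurons with both arrays required above background, at 5 and 7 dpi and in neurons with normexp, at 7 dpi and in neurons with quantile normalization, median centring and the brightest probe by linear signal, and in neurons with the mean over probes, which gave 2 in place of 1 at 1 dpi. Median centring left 4 ligands higher in neurons than in MEF, 0 of them neutrophil-attracting, and 3 lower at 7 dpi than in neurons, with splits of 7 higher and 8 lower at 5 over 3 dpi and 12 and 3 at 7 dpi over neurons. With no filter 5 macrophage-made ligands were lower at 1 dpi. Quantile normalization and normexp gave 6 higher with 16 and 13 lower in neurons. The low end of the scale is the least certain: normexp moved a called difference by up to 2.16 and left 13 of 87 under 2-fold. The cause was not tested.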
